A study of Mus musculus with 12 samples.

Results

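The sites shifted only in caput replicate 1 are autosomal CpG sites where that sample of sorted spermatozoa differed from testicular spermatozoa by at least 30 percentage points in either direction, while caput replicates 2 and 3 each differed by less than 10 points. They were chosen by these caput and testis values, with the reads of the 3 testis replicates pooled, so the caput and testis levels of the members are a description and were not tested. The rule found 324 sites among the 13917 autosomal sites of the table, a share of 2.33%. Methylation in caput replicate 1 was above the testis level at 120 of them, called gains (0.862%), and below it at 204, called losses (1.47%). Spermatozoa of 4 origins (testis, caput epididymidis, corpus epididymidis and cauda epididymidis) were taken from untreated mice aged 10 to 12 weeks, of B6D2F1 background with the transgenes Tg(CAG/su9-DsRed2, Acr3-EGFP)RBGS002Osb, with 3 samples per origin. All groups carry both transgenes, a red protein in mitochondria and a green protein in the acrosome, and cells positive for both colours were collected by fluorescence-activated sorting. The paper describes spermatozoa taken from a pool of 4 mice, so single animals are not resolved. A caption of the paper calls its methylation results representative of 3 independent experiments. Whether each replicate was a separate pool of mice is not given in the sources used here. Methylation is the percent of reduced representation bisulfite sequencing reads that kept a cytosine at a site.

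Methylation of CpG cytosines is laid down across most of the genome of male germ cells before meiosis, while CpG-rich promoters stay largely free of it. Spermatozoa leave the testis transcriptionally silent and pass through the caput, corpus and cauda epididymidis, where they mature and are stored. At imprinted genes the methylation of a control region marks the allele of 1 parent, and spermatozoa carry the paternal pattern.

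Over the sites of the table, reads numbered 643941 in caput replicate 1, 869129 in caput replicate 2 and 706411 in caput replicate 3. The other samples ranged from 429606 reads in corpus replicate 1 to 1007992 in testis replicate 2. Median coverage was 30 reads in caput replicate 1 and 20 in corpus replicate 1, and each site had at least 10 reads in each sample. Caput replicate 1 stood apart from the other caput samples, with a Pearson correlation across autosomal sites of 0.872 with replicate 2 and 0.857 with replicate 3, against 0.944 between replicates 2 and 3 (sites are not independent, and no p is given). The file names of the authors' caput and corpus lists carry "nooutlier" without naming a sample; caput replicate 1 may be among the samples they leave out, but those lists were not used and this was not analysed here. It differed from the testis by at least 30 points at 2029 sites upward and at 1159 downward. At 1374 of the upward sites (67.7%) and 569 of the downward sites (49.1%), caput replicates 2 and 3 both moved by at least 10 points the same way, and those sites are not members. The gains make 5.91% of the upward sites and the losses 17.6% of the downward ones.

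The same thresholds were also applied with each other epididymal replicate in the place of caput replicate 1, as counts with no test. Caput replicate 2 gave 9 gains and 38 losses, and caput replicate 3 gave 18 gains and 32 losses. Corpus replicate 1 came nearest to caput replicate 1 in number, with 66 gains and 158 losses. Corpus replicate 2 gave 70 gains and 15 losses, and corpus replicate 3 gave 50 and 65. In cauda the counts were 3 and 6, 9 and 10, and 8 and 14 for replicates 1, 2 and 3. Sites moved in a single replicate were thus found in each segment, and were most numerous in caput replicate 1. As a share of all sites that moved by at least 30 points in the sample, they made 10.2% in caput replicate 1, 3.31 and 3.79% in caput replicates 2 and 3, 23.8, 15.2 and 16.2% in corpus and 14.5, 20.7 and 19.8% in cauda.

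Most gains were nearly unmethylated in testicular spermatozoa. Their median testis level was 4.32%, 76 of the 120 were below 10%, and 33 had no methylated read in the testis. In caput replicate 1 the level was at least 90% at 23 gains and below 50% at 51. The median upward shift was 42.9 points. At the extreme was an intron site of Speg, which encodes a muscle protein kinase (chr1:75389167-75389167, GRCm38, plus strand). It had 26 methylated reads of 27 in caput replicate 1, or 96.3% (95% Wilson interval 81.7 to 99.3%). In the testis it had 0 of 65 (Wilson interval 0 to 5.58%). Wilson intervals and the logistic regression p-values below cover at most counting error. They treat reads as independent molecules, which reads amplified by PCR are not, so they can understate that error too.

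Losses were nearly fully methylated in the testis, with a median of 96.8%. At 186 of the 204 the testis level was above 90%, and at 35 it was 100%. Caput replicate 1 kept at least 50% at 136 losses and fell to 10% or less at 6. The median size of the shift was 39.99 points. The largest was at an intron site of Camta1, a gene for a calmodulin-binding transcription activator (chr4:151451677-151451677, plus strand), with 0 methylated reads of 11 in caput replicate 1 (Wilson interval 0 to 25.9%) and 100% in each of the other 11 samples. Speg and Camta1 were picked after their values were seen. Members had fewer reads in caput replicate 1 than the table as a whole, since 43.3% of gains and 41.2% of losses had under 20 reads there, against 25.7% of all autosomal sites. This was not particular to caput replicate 1, since the median coverage of members was below that of all autosomal sites in each sample. In caput replicate 2 it was 28.5 reads at gains and 34 at losses, against 41. With at least 20 reads required in all 12 samples, 22 gains and 44 losses were left.

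Mean methylation over the gains was 11.9, 15.8 and 13.4% in testis replicates 1, 2 and 3, and 61.7, 15.7 and 14.3% in the caput replicates. In corpus it was 14.5, 20.7 and 15.2%, or 16.8% ± 3.37 (SD, n = 3), and in cauda 13.3, 11.6 and 10.3%, or 11.7% ± 1.52 (SD, n = 3). Each corpus sample was above each cauda sample, and corpus replicate 2 was the highest of the 6. Over all autosomal sites the means were 49.4% ± 1.26 in corpus and 48.6% ± 0.348 in cauda (SD, n = 3). Over the losses, the means were 94.8, 95.9 and 95.1% in the testis and 50.8, 94.0 and 95.1% in caput. They were 90.4, 91.3 and 91.0% in corpus (90.9% ± 0.458, SD, n = 3) and 95.6, 96.3 and 95.9% in cauda (95.9% ± 0.369, SD, n = 3). All 3 corpus samples were below all 3 cauda samples at the losses. No p is given for these means, because the sites were selected on caput and testis values and neighbouring sites share reads.

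Site by site, few members moved with caput replicate 1 in all corpus replicates. Among gains, 51 had no corpus replicate at least 10 points above the testis, 54 had 1, 13 had 2, and 2 had all 3. Among losses, 105 had no corpus replicate at least 10 points below the testis, 61 had 1, 33 had 2 and 5 had all 3. In cauda, 101 gains and 177 losses had no replicate moved by that much in the direction of caput replicate 1, and 0 had all 3. In the opposite direction, 2 gains were at least 10 points below the testis in all 3 corpus replicates. Another 8 were so in 2, 17 in 1 and 93 in none. In cauda these counts of gains were 5, 11, 18 and 86. Losses at least 10 points above the testis numbered 0, 2, 7 and 195 in corpus, in the same order, and 0, 3, 4 and 197 in cauda. These tallies are not given over all autosomal sites. By sample, 16.7, 33.3 and 21.7% of gains were raised by at least 10 points in corpus replicates 1, 2 and 3, against 11.5, 15.05 and 12.3% of all autosomal sites. At the losses, 24.0, 23.0 and 22.5% were lowered by that much, against 12.8, 8.18 and 11.1% of all autosomal sites. In cauda, 8.33, 6.67 and 1.67% of gains were raised and 6.37, 3.43 and 4.90% of losses were lowered, against 4.58, 5.82 and 3.95% raised and 5.37, 5.47 and 6.85% lowered over all autosomal sites. More gains were lowered than raised in cauda, at 15, 15 and 15.8% in replicates 1, 2 and 3. In corpus, 15, 2.5 and 15% of gains were lowered by at least 10 points.

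Corpus against cauda is the comparison that uses none of the values of the rule. The paper describes cauda spermatozoa as flushed out by perfusion through the vas deferens. Testis, caput and corpus spermatozoa came from tissue cut into pieces and broken up mechanically. Collection method thus differs between corpus and cauda together with the segment, and its part was not tested. Pooled reads were compared by logistic regression at all 14149 sites, with Benjamini-Hochberg adjustment over all of them, and calls needed a difference above 25 points with an adjusted p under 0.01. Over the table, 410 sites (2.9%) were called higher in corpus and 175 (1.24%) lower. Among the gains, 2 of 120 were higher (1.67%) and 1 lower (0.833%), and among the losses 0 of 204 were higher and 7 lower (3.43%). The gains called higher were 6 without testis replicate 3, 5 without corpus replicate 1 and 4 without corpus replicate 2 or 3. The gains called lower were 2 without testis replicate 3 and 0 without testis replicate 2, corpus replicate 1, cauda replicate 1 or cauda replicate 2. At an unadjusted p under 0.05, the logistic regression gave 43 gains (35.8%) and 97 losses (47.5%), in either direction, against 36.2% of the table. All corpus samples were above all cauda samples at 11 gains (9.17%) and 5 losses (2.45%), against 6.88% of the table, and below them at 0 gains and 30 losses (14.7%), against 4.23% of the table. Sites near 0 or 100% have room to move in 1 direction, so these shares depend on the testis level of the members and were not tested against sites of like level. The median corpus minus cauda difference was 5.18 points over the gains and -3.31 points over the losses, against 0 over the table. Without corpus replicate 2 these medians of pooled reads were 0 and -0.600, so their size depends on this sample. By sample, the mean difference from the testis at the gains was 0.457, 6.63 and 1.19 points in corpus replicates 1, 2 and 3. At the losses it was -4.87, -3.97 and -4.26 points, so there corpus replicate 2 did not stand apart. This test ignores how far replicates scatter, and 0 members were called by limma or with an overdispersion term, which gave 8 and 10 gains (6.67 and 8.33%) and 30 and 32 losses (14.7 and 15.7%) at an unadjusted p under 0.05, against 9.25 and 9.86% of the table. Over the table limma called 3 sites higher and 1 lower in corpus, and the overdispersion term 0. The lowest limma adjusted p among the losses was 0.00239015, under the threshold, so there the difference needed for a call was not reached.

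The 2 gains called higher in corpus lie in Atp1a4 and Bcar3. Atp1a4 encodes the sodium pump subunit found in spermatozoa, and its intron site (chr1:172244227-172244227, plus strand) was unmethylated in all testis and cauda samples. It read 78.6, 6.67 and 0% in caput replicates 1, 2 and 3 and 41.7, 37.9 and 22.2% in the corpus replicates. Corpus was above cauda in each sample, by 32.4 points over pooled reads (logistic regression, adjusted p = 3.05037e-09; 0.0196729 by limma), on 12 to 29 corpus reads per sample. At Bcar3, an adaptor protein gene, an intron site 1074 bp from the nearest transcription start (chr3:122420897-122420897, plus strand) read 52.9% in caput replicate 1 and 84.2% in corpus replicate 3. It was 0% in the other 10 samples. The pooled difference of 26.7 points (logistic regression, adjusted p = 2.31875e-07) was 0 without corpus replicate 3. The gain called lower in corpus lies in an intron of the lymphocyte kinase gene Stk10 (chr11:32614316-32614316, plus strand), where caput replicate 1 read 100% and caput replicates 2 and 3 read 47.2 and 44.4%. It was 14.3, 15.4 and 25% in corpus and 56.8, 52.0 and 20.7% in cauda, so the groups overlap. The difference of -25.6 points (logistic regression, adjusted p = 0.00310104) lost its call without corpus replicate 1 or 2, at -24.0 points each, without cauda replicate 1 at -16.9, and without cauda replicate 2 at -22.6.

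The 7 losses called lower in corpus were in Itpr1, Usp7, Anpep and Smyd3 and near Gipc2, Rasgrf1 and Gm25609. Itpr1 encodes a calcium channel of the endoplasmic reticulum, and its intron site (chr6:108306486-108306486, minus strand) read 29.2, 75.5 and 84.6% in the caput replicates. It was 57.1, 67.2 and 70.1% in corpus and 100, 97.2 and 94.4% in cauda, on 14 to 109 reads. The groups did not overlap, and pooled corpus reads were -29.2 points from cauda (logistic regression, adjusted p = 2.3159e-15; 0.171935 by limma). A site between genes, 31631 bp from the nearest transcription start, that of the imprinted gene Rasgrf1 (chr9:89878277-89878277, minus strand), read 49.0, 100 and 86.5% in caput. It was 50, 64.2 and 60% in corpus and 100, 92.1 and 93.3% in cauda, without overlap, for a difference of -33.4 points (logistic regression, adjusted p = 7.37174e-09), though corpus replicates 1 and 3 had 10 reads each. Itpr1 and this site near Rasgrf1 were outside the rule for named genes and are given because they complete the 7.

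Gipc2 encodes a PDZ-domain protein, and a site between genes, 13759 bp from its transcription start (chr3:152089095-152089095, minus strand), read 33.3, 80 and 80.6% in caput. It was 15.8, 68.7 and 40% in corpus and 81.1, 89.2 and 81.8% in cauda, and all corpus samples lay below all cauda samples (-33.6 points, logistic regression, adjusted p = 5.78002e-10). The site nearest the small nuclear RNA gene Gm25609 (chr1:137182660-137182660, minus strand, between genes) read 40% in caput replicate 1, 36.4, 60 and 100% in corpus and 100% in each cauda sample, so corpus replicate 3 overlapped with cauda (-35.8 points, logistic regression, adjusted p = 2.65803e-11). Atp1a4, Itpr1, Gipc2, Gm25609 and the site near Rasgrf1 were called without each of the 6 samples in turn.

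Anpep, Usp7 and Smyd3 depended on single samples. In the promoter region of Anpep, a membrane aminopeptidase (chr7:79849542-79849542, minus strand), caput read 58.1, 100 and 90.9%, corpus 92.9, 77.3 and 26.3% and cauda 96.2, 100 and 96.7%. The difference of -34.0 points (logistic regression, adjusted p = 8.62702e-07) was -14.3 points without corpus replicate 3. At the deubiquitinase gene Usp7, an intron site within 2 kb of a transcription start (chr16:8790800-8790800, minus strand) read 35.6, 82.7 and 91.3% in caput. In corpus it read 87.9, 76.0 and 52.7%, with 91.6, 96.7 and 98.5% in cauda. Its difference of -25.5 points (logistic regression, adjusted p = 1.7538e-12) was -15.8 without corpus replicate 3, -24.6 without cauda replicate 2 and -24.4 without cauda replicate 3. Smyd3 encodes a lysine methyltransferase and held 4 losses within 21 bp, all in an intron. The called one (chr1:179476188-179476188, plus strand) read 40, 94.1 and 61.1% in corpus and 100, 100 and 91.7% in cauda, on 10 to 18 reads. Its difference of -28.7 points (logistic regression, adjusted p = 0.00123606) was -20.4 without corpus replicate 1, -23.5 without corpus replicate 3 and -26.9 without cauda replicate 1, each with no call.

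The genomic sequence around the sites whose call held without any single sample is shown so that the CpG and its neighbours can be read. Each is the GRCm38 plus strand, 5′ to 3′, with the measured CpG in capitals. Atp1a4 is chr1:172244198-172244257, Itpr1 is chr6:108306456-108306515, Gipc2 is chr3:152089065-152089124, Gm25609 is chr1:137182630-137182689 and the site near Rasgrf1 is chr9:89878247-89878306.
Atp1a4: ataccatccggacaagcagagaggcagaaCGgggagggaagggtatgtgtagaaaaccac
Itpr1: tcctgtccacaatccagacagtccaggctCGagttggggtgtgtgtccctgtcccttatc
Gipc2: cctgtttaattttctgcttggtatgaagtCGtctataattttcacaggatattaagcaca
Gm25609: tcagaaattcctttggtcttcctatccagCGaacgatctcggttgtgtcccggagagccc
Rasgrf1: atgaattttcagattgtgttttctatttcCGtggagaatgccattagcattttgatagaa

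Corpus against testis and cauda against testis share the testis samples with the rule, and their counts are a description. Corpus was called higher than testis at 380 sites of the table (2.69%) and lower at 180 (1.27%). Among the gains, 2 were called higher (1.67%), the sites in Atp1a4 and Bcar3, and 0 lower. Among the losses, 5 were called lower (2.45%), at Smyd3 and Anpep and near Gm25609, Gipc2 and Rasgrf1, and 0 higher, with 48 gains (40%) and 93 losses (45.6%) at an unadjusted p under 0.05 in the logistic regression, against 36.8% of the table. Limma and the overdispersion term called 0 members in corpus against testis, with 10 gains each (8.33%) and 18 and 24 losses (8.82 and 11.8%) at that unadjusted p, against 9.01 and 9.56% of the table. Over the table limma called 2 sites higher and 1 lower in this comparison, and the overdispersion term 0. Leaving out corpus replicate 2 gave 4 gains higher, 3 gains lower and 11 losses lower, with 344 sites of the table higher and 339 lower. Leaving out corpus replicate 3 gave 8 losses lower, and leaving out testis replicate 3 gave 1 gain lower. Cauda was called higher than testis at 14 sites of the table (0.0989%) and lower at 19 (0.134%), and 0 gains and 0 losses were among them in the logistic regression, with 31 (25.8%) and 61 (29.9%) at an unadjusted p under 0.05, against 22.7% of the table. Limma and the overdispersion term also called 0 members there, with 2 and 4 gains (1.67 and 3.33%) and 12 and 8 losses (5.88 and 3.92%) at that unadjusted p, against 4.06 and 3.07% of the table, and both called 0 sites over the table. In the logistic regression, gains called lower in cauda were 1 without testis replicate 1 and 2 without cauda replicate 1. Losses called higher were 1 without testis replicate 3. Over the table, sites called lower in cauda were 39 without testis replicate 1, 35 without cauda replicate 1 and 29 without cauda replicate 2. Sites called higher were 28 without cauda replicate 1, 22 without testis replicate 2 and 13 without testis replicate 3.

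Among gains with at least 20 reads in all samples, the largest shift was in an intron of the noncoding gene Gm16083 (chr1:130550489-130550489, plus strand). It read 9.43, 36.7 and 2.27% in the testis and 97.8, 26.5 and 9.09% in caput, with 45 of 46 reads methylated in caput replicate 1 (Wilson interval 88.7 to 99.6%). Corpus read 32.6, 20.5 and 72.7% and cauda 6.67, 13.2 and 21.7%. The site thus varied among testis replicates too, and corpus replicate 3 was nearest to caput replicate 1. Between genes, 27314 bp from the start of 9930014A18Rik (chr15:60794957-60794957, plus strand), caput read 87.0, 16.7 and 17.2%, corpus 13.6, 20.3 and 0%, and cauda 13.2, 10.3 and 8.93%. Upstream of Fnta, the gene for the alpha subunit of farnesyltransferase (chr8:26016100-26016100, minus strand), caput read 71.0, 11.4 and 14.3%, corpus 0, 26.5 and 13.2%, and cauda 1.30, 7.35 and 0%. In the UTR of Ebf1, a B-cell transcription factor (chr11:45007162-45007162, plus strand), 56 of 87 reads were methylated in caput replicate 1, or 64.4% (Wilson interval 53.9 to 73.6%). The other caput samples read 6.90 and 7.77%, corpus 15.4, 27.0 and 10.8%, and cauda 6.85, 15.1 and 3.70%. At these last 3 sites the other 11 samples all stayed below 30%.

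Promoter gains were led by Npr2, the receptor of C-type natriuretic peptide, in whose UTR (chr4:43632026-43632026, minus strand) caput read 82.4, 10.0 and 9.09%. Corpus read 33.3, 4.76 and 0% there, and cauda 0% in each sample. Near the start of Ctnnd2, a delta-catenin gene (chr15:30646366-30646366, plus strand), caput replicate 1 read 80.5% on 41 reads (Wilson interval 65.99 to 89.8%), and caput replicates 2 and 3 read 0%. Corpus was 33.3, 7.69 and 22.6% and cauda 2.70, 0 and 7.14%, without overlap, for a difference of 20.1 points that is below the call threshold. Pth2, which encodes a neuropeptide (chr7:45181954-45181954, minus strand), read 73.3, 8.82 and 0% in caput, 18.2, 4.76 and 4% in corpus and 0% in each cauda sample. Commd1 and Fnta are also among the largest promoter gains, and Commd1 is described with the imprinted genes.

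Among losses with at least 20 reads in all samples, the largest shift lay between genes, 61744 bp from the start of Ajap1, an adherens junction gene (chr4:153544555-153544555, minus strand). The testis read 100% in each sample and caput 33.3, 100 and 97.3%, with 11 of 33 reads methylated in caput replicate 1 (Wilson interval 19.8 to 50.4%). Corpus read 75.9, 73.3 and 85.0% and cauda 100, 95.6 and 100%, without overlap, but the difference of -21.7 points (logistic regression, adjusted p = 3.77241e-06) is too small for a call. At a site 54916 bp from the start of Rph3a, which encodes a synaptic vesicle protein (chr5:121065008-121065008, minus strand), caput read 31.8, 87.2 and 100%, corpus 70.0, 97.3 and 95.5%, and cauda 87.5, 88.9 and 100%. In the promoter region of the pseudogene Mif-ps7 (chr12:109098602-109098602, minus strand), caput read 28.6, 90.9 and 100%, while corpus and cauda stayed at 92.0% or more. An intron site of Rgs3, a regulator of G-protein signalling (chr4:62570572-62570572, minus strand), read 36.7, 89.0 and 94.4% in caput. Its corpus samples had 85.7, 93.5 and 100%, against 96.8, 100 and 100% in the cauda samples. Corpus thus lay below cauda in each sample at Ajap1 and overlapped with it at the other 3.

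Other promoter losses showed the same partial loss in caput replicate 1. Psmd5, which encodes a proteasome assembly chaperone (chr2:34875423-34875423, plus strand), read 28.6, 95.1 and 98.0% in caput and at least 90.5% in each corpus and cauda sample. Gm8579 (chr6:3289100-3289100, minus strand) read 50% in caput replicate 1, on 12 reads, and 100% in each of the other 11 samples. At Zfhx2os, a noncoding gene (chr14:55052900-55052900, plus strand), caput read 47.7, 85.5 and 90.4%, corpus 85.2, 80.3 and 82.9% and cauda 100% in each sample, a difference of -17.3 points without overlap. At Gm15407 (chr5:148820707-148820707, minus strand), the testis was lower, at 64.8, 77.1 and 81.0%, caput replicate 1 read 26.1%, and corpus ranged from 52.0 to 100%.

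Members of 1 direction within 100 bp of each other were joined. The gains formed 110 groups, 101 of them a single site, and the losses 190 groups, 179 of them a single site. The largest group of gains was 3 sites before the start of the pseudogene Gm7856 (chr16:91514782-91514793, minus strand), at 68.8, 70.6 and 70.6% in caput replicate 1 on 16 or 17 reads. At those 3 sites the testis replicates ranged over 5.71%, 30.4 to 37.5% and 26.1 to 27.3%, and corpus replicate 2 read between 39.5 and 44.7%, corpus replicate 1 5% and corpus replicate 3 0, 31.2 and 0%. Pairs of gains lay between genes near Gm14262 (chr2:168311247-168311256, minus strand), at 61.1 and 94.4% in caput replicate 1, and near Hopxos (chr5:77086526-77086538, minus strand), at 76.5% at both sites. Corpus replicate 2 was raised at both pairs, to 23.9% at each Gm14262 site and to 35.6 and 36.4% at Hopxos, while corpus replicate 1 was at 0%. The 4 Smyd3 losses (chr1:179476184-179476204) read 66.7, 56.2, 60 and 40% in caput replicate 1. The 3 losses before the start of Pafah2, a phospholipase gene (chr4:134402760-134402787, plus strand), each read 62.5%, with 10 of 16 reads methylated, and corpus and cauda were at 80% or more. A pair 24348 and 24362 bp from Gm18080 (chr14:58264569-58264583, minus strand) read 13.3% at both sites, and 78.6, 85.7 and 95.5% in corpus at the first. Neighbouring sites can share reads, so the sites of a group are not separate observations. The Pafah2 and Gm14262 sites are shown as examples of neighbouring members, on the GRCm38 plus strand with 1 member CpG in capitals, at chr4:134402751-134402810 and chr2:168311226-168311285.
Pafah2: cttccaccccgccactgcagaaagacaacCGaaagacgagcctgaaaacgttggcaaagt
Gm14262: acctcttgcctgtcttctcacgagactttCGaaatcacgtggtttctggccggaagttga

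Sites that are not members but lie within 100 bp of one numbered 100 for the gains and 79 for the losses. Beside the gains, their median shift in caput replicate 1 was 18.75 points upward, 35 moved by at least 30 points the same way and 0 by at least 10 the other way. Beside the losses, the median was 11.0 points in the direction of the member, 19 moved by at least 30 points the same way and 1 by at least 10 the other way. Neighbours can share reads with the member, and these values use the contrast of the rule.

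The surroundings of the members are given beside those of all autosomal sites. Promoter regions, within 2 kb of a transcription start, held 45% of gains and 17.6% of losses, beside 43.8% of all autosomal sites. Introns outside promoters held 18.3% of gains, 38.2% of losses and 22.0% of all autosomal sites, and 30.8, 35.3 and 28.0% lay between genes. Exons outside promoters held 5.83, 8.82 and 6.30%. Windows of 200 bp with at least 10 CpG held 10.8% of gains and 3.92% of losses, against 27.2% of all autosomal sites. Repeats marked in the genome sequence held 15.8% of gains, 6.37% of losses and 15.9% of all autosomal sites. Chromosome 4 had the largest share of its sites among the members, 4.03%, and chromosome 10 the smallest, 1.15%. These shares were not tested.

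Marker lists show the caput samples in general as well as the members. The germline list had 8 promoter sites, in D1Pas1, Dazl and Tex101, genes used in spermatogenesis, and 0 were members. Their mean was 4.16, 0.831 and 1.92% in the testis and 83.1, 50.7 and 59.2% in caput. The corpus samples had 27.9, 40.4 and 8.54% and those of cauda 0.891, 2.17 and 2.87%. All 3 caput samples were high there, and caput replicate 1 the highest. In the epididymal epithelium list, 5 promoter sites of the keratin gene Krt18 read 92.4, 94.6 and 88.8% in the testis, 43.0, 56.96 and 52.7% in caput. The same sites had 67.8, 76.7 and 69.8% in corpus, with 93.1, 93.5 and 86.4% in cauda, and 0 were members. In the same list, 6 exon sites of Epcam had 83.7, 96.2 and 85.1% in the testis and 92.5, 74.5 and 84.5% in caput. They had 100, 78.0 and 54.4% in corpus and 81.8, 74.1 and 67.3% in cauda. The leukocyte list had 0 promoter sites, and the smooth muscle list had 1, in Cald1, between 89.4 and 100% in all samples. In the coding sequence of Cald1, 7 sites (chr6:34755722-34755748) had means of 13.5, 1.86 and 2.18% in the testis and 76.7, 75.3 and 88.4% in caput. They had 0, 10.3 and 20.4% in corpus and 0.348, 0.649 and 1.48% in cauda, and 0 were members. Other sites of these lists were 2 in an exon of Cx3cr1 and 1 in an intron of Myh11. Cx3cr1 had 83.5, 97.6 and 93.8% in the testis and 94.3, 82.0 and 100% in caput. Its corpus samples had 96.4, 98.1 and 88.6% and its cauda samples 97.3, 93.8 and 89.7%. Myh11 had 59.1, 28.6 and 13.6% in the testis and 72.7, 47.1 and 24.1% in caput. Its corpus samples had 40, 59.1 and 35.7% and its cauda samples 33.3, 57.7 and 76.9%. The part of other cells in the member shifts was not tested.

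The lists of imprinted and developmental genes held 4 gains and 0 losses, counting only sites in or within 2 kb of the listed genes. Of the genes methylated on the maternal allele, Gnas, Mcts2 and Zrsr1 had 8 promoter sites, with means of 0, 0.926 and 7.90% in the testis, 46.1, 10.2 and 17.98% in caput. The corpus means were 1.09, 8.62 and 10.9% and the cauda means 1.39, 0.625 and 4.17%. The other site of the list, in an exon of Peg10, varied between 54.5 and 100%. It read 91.1, 86.3 and 72.5% in the testis and 89.5, 71.4 and 100% in caput. Corpus read 100, 82.9 and 100% there and cauda 81.0, 54.5 and 70.3%. The list had 1 gain among 9 sites in or near its genes (11.1%, against 0.862% of all autosomal sites). That site (chr11:22972947-22972947, minus strand) lies in an annotated UTR, upstream of the nearest Commd1 transcription start and also in or near Gm28048 and Zrsr1. Which gene the UTR belongs to was not resolved. Commd1 is the copper metabolism gene in whose intron Zrsr1 lies. The site read 64.3% on 14 reads in caput replicate 1 and 0 and 11.8% in caput replicates 2 and 3. Corpus read 0, 4.76 and 17.6% there and cauda 0, 0 and 4.76%. The 4 Zrsr1 promoter sites (chr11:22972941-22972982), this one among them, had means of 26.8, 0 and 11.4% in the caput replicates. Of the genes methylated on the paternal allele, H19 had 1 promoter site, between 87.1 and 98.9% in all samples, and Rasgrf1 had 4, with sample means between 0 and 3.57%, and 0 were members. The loss 31631 bp from the start of Rasgrf1 lies outside the sites of this list, which does not reach that far. Whether this loss or any listed site lies in an imprinting control region was not examined. The developmental regulators had 151 promoter sites with a mean of 10.9% in caput replicate 1 and between 3.46 and 6.80% in the other samples, and 3 gains among 196 sites in or near the genes (1.53%), in Nkx2-1, Hoxa4 and Hoxa7. These shares were not tested.

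Those 3 gains encode homeobox transcription factors. Hoxa4 (chr6:52190655-52190655, plus strand, coding sequence) read 41.4, 0 and 0% in caput, 6.25, 39.3 and 19.2% in corpus and 0% in each cauda sample. The corpus samples were all above cauda, by 24.3 points over pooled reads (logistic regression, adjusted p = 0.000109645), just under the difference needed for a call. Nkx2-1 (chr12:56537089-56537089, minus strand, intron) read 43.8, 0 and 0% in caput, with corpus at 0, 0 and 4.35% and cauda at 0, 0 and 10.0%. Hoxa7 (chr6:52216580-52216580, plus strand, coding sequence) read 37.5, 10.9 and 7.69% in caput. Corpus samples had 11.8, 5.36 and 14.9% at this site, and cauda samples 0, 25 and 0%.

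At the edge of the rule a few reads set whether a site is a member. The gains just inside it were at AC154766.4 (chr17:23550923-23550923) and Spdya (chr17:71552979-71552979), each with 3 methylated reads of 10 in caput replicate 1 and 0% in the testis, a Wilson interval of 10.8 to 60.3%. Just outside were sites near AC131065.1 (chr18:80169624-80169624) and at Osr2 (chr15:35300216-35300216), with shifts of 29.9 and 29.7 points. The losses just inside were near Gm7550 (chr12:54387529-54387529) and Gm14069 (chr2:139245089-139245089), with shifts of -30 and -30.1 points. Sites at Gm29230 (chr3:51073447-51073447) and Gm38256 (chr1:157940104-157940104) lay just outside, with shifts of -29.9 points each.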

How the data were processed

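The authors trimmed and aligned the reads, with Trim Galore 0.4.1 and Bismark 0.16.1 to GRCm38 per the submitters' processing notes, and deposited counts of all, methylated and unmethylated reads per CpG site and sample, without normalization. All 36 columns were used. Deposited lists of the authors' comparisons, holding methylation differences, p-values and q-values, were not used. The members, gene lists and tests were chosen with earlier results of these data known. Percentages were computed as methylated reads over coverage. Groups were compared by logistic regression on pooled reads with a likelihood-ratio test over all 14149 sites (Python 3.11.15, numpy 2.4.6, scipy 1.17.1), following methylKit except for Benjamini-Hochberg adjustment. The regression was tried on simulated reads. Those had no scatter between replicates beyond counting error, so the trial cannot show how the regression behaves with such scatter. With 3 samples against 3, an exact permutation test cannot give a p under 0.1, so none was run. Named genes were, for each direction, the 4 largest shifts with at least 20 reads in all samples, the 3 largest groups within 100 bp, the 3 largest called corpus against cauda differences, the 6 largest promoter shifts, members at listed genes and sites at the threshold. Of these, 1 is not reported here. Genes came from GENCODE on GRCm38, and sequence from the RefSeq GRCm38 assembly (samtools 1.23.1, pysam 0.24.0). Alternatives changed the thresholds, coverage, testis level, test (limma 3.58.1 in R 4.3.3) and samples.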

Additional observations from a re-analysis of the deposited data

Results flagged for a closer look

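Corpus and cauda spermatozoa differed in the per-site logistic regression on pooled reads at 10 members. In corpus 1.67% of gains were called higher and 0.833% lower, and 0 losses were called higher and 3.43% lower, against 2.9% of the table higher and 1.24% lower. This test ignores the scatter of replicates, and 5 of the calls (Bcar3, Stk10, Smyd3, Anpep and Usp7) were lost when single samples were left out; without corpus replicate 3 the Bcar3 difference was 0 points. The corpus minus cauda differences were 32.4 points at Atp1a4, 26.7 at Bcar3 and -25.6 at Stk10 among the gains. Among the losses they were -28.7 points at Smyd3, -35.8 near Gm25609, -34.0 at Anpep, -33.6 near Gipc2, -25.5 at Usp7, -29.2 at Itpr1 and -33.4 near Rasgrf1. Limma, which uses the spread between samples, called 0 of the 10, with adjusted p from 0.0196729 at Atp1a4 to 0.71297 at Bcar3, and gave 8 gains (6.67%) and 30 losses (14.7%) at an unadjusted p under 0.05, against 9.25% of the table. The fit with an overdispersion term also called 0, with 10 gains (8.33%) and 32 losses (15.7%) at an unadjusted p under 0.05, against 9.86% of the table.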

How the results depend on the processing

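Counts are given as gains and losses; corpus-against-cauda calls as gains higher, gains lower and losses lower; and corpus-against-testis calls as gains higher and losses lower. As reported these are 120 and 204; 2, 1 and 7; and 2 and 5. With a caput replicate 1 shift of at least 40 points, members were 76 and 102. With caput replicates 2 and 3 under 5 points, they were 59 and 94, the calls 1, 0 and 2 against cauda and 1 and 2 against testis, and the median corpus minus cauda difference 3.12 points over gains and -1.92 over losses. Under 15 points, they were 241 and 309, with 10 gains higher and 11 losses lower against cauda, 8 gains higher, 1 gain lower and 9 losses lower against testis, and medians of 6.83 points over gains and -4.85 over losses. With at least 20 reads in all samples, members were 22 and 44, the calls 0, 0 and 1 against cauda and 0 and 0 against testis, and the medians 6.01 points over gains and -4.04 over losses. The mean of the percentages gave 3.81 points over gains and -2.62 over losses. Other member thresholds change which sites are counted; beyond that the cause was not tested.

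A difference above 40 points, the overdispersion term and limma each left 0 calls among members in corpus against cauda and corpus against testis; at that difference 50 sites of the table were higher and 19 lower against cauda, and 46 and 24 against testis. The logistic regression gave 43 gains and 97 losses against cauda at an unadjusted p under 0.05, limma 8 and 30 and the overdispersion term 10 and 32, against 36.2, 9.25 and 9.86% of the table. Over the table limma called 3 sites higher and 1 lower in corpus against cauda, and the overdispersion term 0. An adjusted p under 0.001 left 0 gains lower in corpus against cauda.

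Leaving out each testis replicate in turn gave 114 to 128 gains and 196 to 207 losses; the rule does not use corpus or cauda. The ranges that follow also cover leaving out each corpus and cauda replicate of the groups compared. In corpus against cauda, gains higher ranged from 2 to 6, gains lower from 0 to 2, losses lower from 5 to 10 and losses higher stayed 0. In corpus against testis, gains higher ranged from 2 to 4, gains lower from 0 to 3 and losses lower from 5 to 11, with the highest of each without corpus replicate 2, where sites of the table called lower rose from 180 to 339 against testis and from 175 to 328 against cauda. In cauda against testis, gains lower ranged from 0 to 2 and losses higher from 0 to 1. Sites of the table called lower there ranged from 16 without cauda replicate 3 to 39 without testis replicate 1. Those called higher ranged from 13 without testis replicate 3 or cauda replicate 2 to 28 without cauda replicate 1. The median corpus minus cauda difference ranged from 0 to 7.30 points over gains and from -3.66 to -0.600 points over losses, with the values nearest 0 without corpus replicate 2.

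The replicate numbers were not taken to pair the samples: the correlation of deviations from the group mean between samples of the same number was between -0.123 and 0.0592. Each corpus sample correlated best with the cauda sample of its own number, a hint from the data and not from the design; against testis, 1 of 3 corpus and 1 of 3 cauda samples did. With the replicate block, the calls were 2, 1 and 7 in corpus against cauda, 2 and 5 in corpus against testis, and 405 and 178 over the table in corpus against cauda.

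Coverage limits the members: a shift of 30 points is 3 reads where 10 were sequenced, and corpus replicate 1 had a median of 20 reads. Neighbouring sites share reads, so joined groups are fewer than sites. Pooled mice hide differences between animals. The 3 samples per group bound any test that uses their spread.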

Other observations

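On the sex chromosomes, which the rule leaves out, 3 sites passed the same thresholds in caput replicate 1, and 3 did with caput replicate 3 in its place. Caput replicate 2, cauda replicate 1 and cauda replicate 3 gave 1 each, and the corpus replicates and cauda replicate 2 gave 0.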
